A study of Homo sapiens with 12 samples.

Results

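ZEB1, ZEB2, GRHL1, GRHL2, ELF3, EHF, OVOL1, OVOL2, FLI1 and ETS1 are 10 transcription factor genes that were examined in GS689.Li (written GS689) and PC3E, 2 human lines that both descend from PC3 prostate cancer cells. GS689 has mesenchymal and PC3E epithelial character, both are labelled wild type, and both were grown in the same serum medium with G418 and harvested after a night in culture. The members were found by matching each exon event of the deposited tables to a gene by strand and by its exon and intron lengths in GENCODE. An event is an exon with its 2 flanking splice junctions, with reads counted for the included and for the skipped form. Of the 114816 events of the RNA-seq table, 44 events in 33 distinct exons belonged to 9 of the 10 genes. Of the 2023 events of RASL-seq, a targeted assay that ligates probe pairs across splice junctions and counts the products, 2 belonged to members, 1 to FLI1 and 1 to ZEB1. No event in either table matched OVOL1, which is therefore not described further.

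ZEB1 and ZEB2 are zinc finger and homeodomain repressors that bind E-boxes in epithelial genes such as CDH1 and drive epithelial to mesenchymal transition. GRHL1 and GRHL2 belong to the grainyhead-like family and OVOL1 and OVOL2 to the ovo-like zinc finger family, and both families hold cells in the epithelial state. GRHL2 and OVOL2 repress ZEB1, and ZEB1 represses epithelial factors in return. ELF3 and EHF are ETS family factors of epithelia. FLI1 and ETS1 are ETS factors best known from blood and endothelial cells, and ETS1 is also found in invasive carcinoma cells.

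Each assay had 3 libraries per line. The RASL-seq columns name the line, so GS689 and PC3E were compared there. The header of the RNA-seq table numbers 2 sets of 3 libraries and names no line for them. The sets were not assigned to lines, no test was run between them, and each library is named by its set and its position. Table totals were 93842790 to 99265928 counts in set 2 and 108955871 to 120853566 in set 1. In RASL-seq they were 615758 to 954120 in GS689 and 754338 to 911476 in PC3E. A read can be counted in several events, so these totals are not the sequencing depth. Library 2 of set 1 and replicate 2 of PC3E stood apart from the other libraries of their groups. A chi-square of inclusion shares, divided by its degrees of freedom, was 6.90 and 5.02 between library 2 and libraries 1 and 3 of set 1, against 2.62 between libraries 1 and 3. It was 6.72 and 4.67 for replicate 2 of PC3E, against 2.35 between replicates 1 and 3. Nothing in the labels ties a replicate to a culture of its own, so a p-value covers only the variation among the libraries at hand, possibly technical.

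The GRHL1 and ETS1 exons described further down are shown as they stand in the GENCODE transcripts, 5′ to 3′ on the strand of the gene, with the exon in capitals and 12 bases of each neighbouring exon in lower case. The GRHL1 exon is exon 5 of 16 of ENST00000324907.13 (hg19, chr2:10102584-10102660, plus strand) and the ETS1 exon is exon 6 of 8 of ENST00000319397.6 (hg19, chr11:128350086-128350346, minus strand). Both are coding.
GRHL1 exon 5: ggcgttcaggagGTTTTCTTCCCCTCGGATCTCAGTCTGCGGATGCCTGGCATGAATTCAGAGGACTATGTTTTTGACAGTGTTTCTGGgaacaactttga
ETS1 exon 6: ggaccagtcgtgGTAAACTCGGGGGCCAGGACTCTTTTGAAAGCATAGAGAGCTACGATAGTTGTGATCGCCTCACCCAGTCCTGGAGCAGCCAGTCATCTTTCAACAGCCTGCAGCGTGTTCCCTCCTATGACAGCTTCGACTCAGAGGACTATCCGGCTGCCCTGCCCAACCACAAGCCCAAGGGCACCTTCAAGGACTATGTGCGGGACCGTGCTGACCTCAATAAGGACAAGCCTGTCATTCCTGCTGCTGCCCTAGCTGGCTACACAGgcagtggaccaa

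In RNA-seq some members were counted mostly in 1 set and some mostly in the other. ZEB1 and FLI1 were counted mostly in set 2, and GRHL2, OVOL2, EHF and GRHL1 mostly in set 1. ELF3 was lower in set 2 by its median with overlapping libraries, and ETS1 differed by less than 2-fold. ZEB2, measured only at 1 event with a noncoding exon, had hardly any counts in either set. The values are the counts of both forms summed over a gene's events and scaled to a table total of 1000000 counts in each library, written CPM. They describe differences of a gene between libraries and are not comparable between genes, which differ in the number of events. In bulk RNA, fewer cells that express a gene and less RNA per cell cannot be told apart. A gene was counted as higher or lower in set 2 when the sets did not overlap and their medians differed at least 2-fold, among genes with a median of at least 20 counts over the 6 libraries. Of 11532 such genes, 11.2% were higher and 7.47% lower in set 2, and the median log2 ratio was 0.11. The middle gene was thus slightly higher in set 2, although every library was scaled to the same total. Of the 10 members 8 reached that minimum, ZEB2 did not, and OVOL1 had no event.

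**Figure D1:**
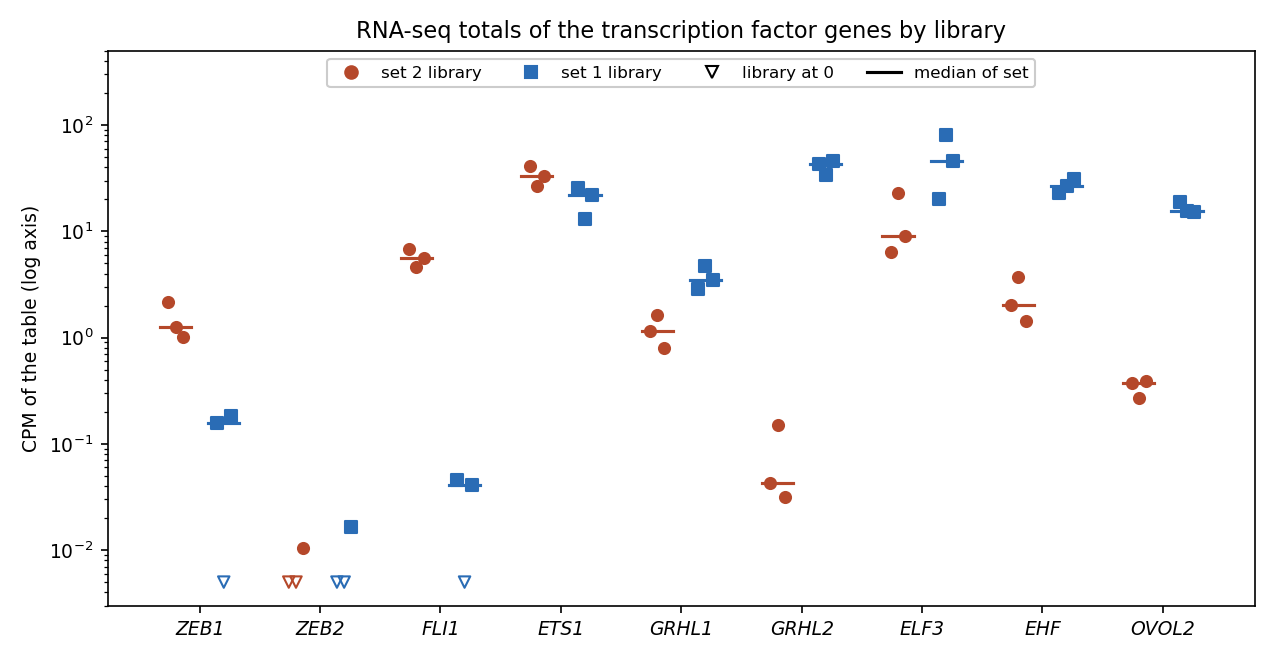
Counts of both forms summed over each gene's RNA-seq events, in CPM, on a log axis, with 1 symbol per library, circles for set 2 and squares for set 1, lines at set medians and open triangles for libraries at 0. ZEB1 and FLI1 lie higher in set 2, and GRHL1, GRHL2, EHF and OVOL2 lie higher in set 1 without overlap, while the ELF3 libraries of the sets overlap.

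ZEB1 had 2.14, 1.26 and 1.01 CPM in libraries 1 to 3 of set 2, against 0.156, 0 and 0.182 in those of set 1. Every library of set 2 was above every library of set 1, and library 2 of set 1 held no ZEB1 count in any of 8 events. All 8 events span exons annotated as noncoding or partly coding, and none spans an exon further downstream. Some share a junction, so they are not 8 separate measures. The median was 8.07-fold higher in set 2. That value rests on few counts in set 1 (17, 0 and 22) and was 13.8-fold without library 1 of set 1 and 16.1-fold without library 3. The event with the most counts spans a 143 nt exon at chr10:31676053-31676195, with 97, 73 and 56 counts in set 2, against 4, 0 and 15 in set 1. Summed over each set these are 226 and 19 counts, a ratio of 14.1 after scaling by the table totals, with a 95% exact interval of 8.83 to 23.9, which covers counting error only. Most of them, 84, 64 and 47 in set 2 against 2, 0 and 15 in set 1, came from the junction that skips this exon.

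ZEB2, the second ZEB repressor, had 1 count in set 2, in library 3, and 2 counts in set 1, in library 3. Its single event lies at an exon annotated as noncoding, so the junctions of its coding exons were not measured. No fold is given between such counts.

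FLI1 had 6.88, 4.57 and 5.56 CPM in set 2, against 0.0459, 0 and 0.0414 in set 1. The set 1 libraries held 5, 0 and 5 counts, the set 2 libraries 646, 454 and 531. The median was 134-fold higher in set 2, and between 122-fold and 269-fold with 1 library left out, the highest value being that without library 1 of set 1 and 242-fold that without library 3. Its event with the most counts spans a 66 nt coding exon at chr11:128675261-128675326, with 218, 124 and 135 counts in set 2, against 0, 0 and 1 in set 1. The scaled ratio of these sums was 566, with a 95% exact interval of 101 to 22396. All 5 FLI1 events were higher in set 2 without overlap, but some share a junction, so they are not 5 separate measures.

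ETS1 was counted well in every library, with 41.3, 26.8 and 33.4 CPM in set 2, against 25.6, 12.9 and 22.1 in set 1. The sets did not overlap, but only by a narrow gap between 26.8 and 25.6. The median was 1.51-fold higher in set 2 (1.36-fold to 1.91-fold with 1 library left out), under the 2-fold minimum, while the highest library exceeded the lowest by 1.54-fold within set 2 and 1.98-fold within set 1. By both forms together, its 3 events were higher in set 2 by 1.62-fold to 1.69-fold in scaled sums. With skipping counts alone, the rarer form of each ETS1 event, the direction turned, with a log2 ratio of -0.33 against 0.60. The lowest ETS1 value of each set was in library 2.

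GRHL2, a pioneer factor for epithelial enhancers, had 0.0426, 0.151 and 0.0314 CPM in set 2, against 42.5, 34.1 and 46.1 in set 1. These are 4, 15 and 3 counts over 7 events in set 2, against 4635, 3838 and 5572 in set 1. The set 1 median was 998-fold that of set 2, and between 439-fold and 1150-fold with 1 library left out. The lowest 2 of these values, 439-fold and 466-fold, were those without library 3 or library 1 of set 2. The event with the most counts held 6 counts in set 2 and 2975 in set 1, and the scaled ratio of set 1 over set 2 was 418 with a 95% exact interval of 192 to 1140. All 7 events were lower in set 2 without overlap, by 284-fold to 1061-fold. Some share a junction, so they are not 7 separate measures.

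GRHL1, which also maintains desmosomal gene expression in skin, had 1.16, 1.64 and 0.806 CPM in set 2, against 2.88, 4.76 and 3.48 in set 1. Set 2 was lower in every library, and the set 1 median was 2.99-fold higher (2.48-fold to 3.54-fold with 1 library left out). Its 2 events were lower in set 2 by 2.69-fold and 3.71-fold. GRHL1 still had 109, 163 and 77 counts in the set 2 libraries.

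OVOL2 had 0.373, 0.272 and 0.387 CPM in set 2, against 18.8, 15.4 and 15.1 in set 1. Libraries agreed closely within both sets, with a highest over lowest ratio of 1.42 in set 2 and 1.24 in set 1. The set 1 median was 41.3-fold that of set 2 (40.5-fold to 47.8-fold with 1 library left out). Its event with the most counts, at a 190 nt coding exon on the minus strand of chromosome 20, held 42 counts in set 2 and 2103 in set 1, and set 1 exceeded set 2 by 42.2-fold after scaling, with a 95% exact interval of 31.1 to 58.7.

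EHF had 2.003, 3.69 and 1.44 CPM in set 2, against 23.0, 26.8 and 31.2 in set 1. Every library of set 2 was lower, and the set 1 median was 13.4-fold higher (9.41-fold to 15.5-fold with 1 library left out). The 6 events did not differ equally. They were lower in set 2 by 8.80-fold to 760-fold, and the event at the far end of this range lies at the 5′ end of the gene.

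That EHF event spans a 158 nt noncoding exon at chr11:34663555-34663712, between the first exon and exon 2 of ENST00000257831.7, and was described after its values were seen. Its skipping count is the direct junction from the first exon to exon 2, with 0, 1 and 0 reads in set 2, against 254, 256 and 376 in set 1. Exon 2, of 100 nt, held 18, 76 and 21 inclusion counts in set 2, against 531, 630 and 832 in set 1. After the first junction was subtracted, 18, 75 and 21 counts were left in set 2, against 277, 374 and 456 in set 1, which belong to the junction from exon 2 to exon 3. Summed and scaled by the table totals, set 1 exceeded set 2 by 747-fold at the first junction, with a 95% exact interval of 134 to 29534. At the junction from exon 2 to exon 3 the ratio was 8.19, with an interval of 6.75 to 10.0. Reads into exon 2 of EHF from that first exon were thus nearly missing from set 2, while reads from exon 2 onwards were not. Of 12 EHF transcripts in GENCODE release 29, 11 hold exon 2, which is joined to that first exon in 2 and to another upstream exon in 9. The subtraction assumes that the junction is counted alike in both events. Over 30093 such pairs of events, the inclusion count was at least as large as the skipping count of the other event in all 6 libraries in 92.7%. This cannot show equal counting, since the inclusion count also holds the second junction of the exon. In the remaining pairs the junction was not counted alike in at least 1 library.

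ELF3 had 6.33, 23.0 and 9.03 CPM in set 2, against 20.2, 80.4 and 45.8 in set 1. The highest set 2 library, 2, lay above the lowest set 1 library, 1, so the sets overlapped, and ELF3 was highest in library 2 of both sets. The set 1 median was 5.07-fold higher, but the highest library exceeded the lowest by 3.64-fold within set 2 and by 3.97-fold within set 1. Without library 2 of set 2 the sets no longer overlapped and the ratio was 5.96-fold, and without library 1 of set 1 it was 6.98-fold, also without overlap. With any other library left out they still overlapped, and the ratio lay between 2.85-fold, without library 1 of set 2, and 5.57-fold. It was 3.12-fold without library 3 of set 2. The 6 ELF3 events with at least 100 counts were all lower in set 2 by their summed counts, by 3.60-fold to 4.24-fold, but the libraries of the sets overlapped in all but 1 of them. Some share a junction, so they are not 6 separate measures.

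RASL-seq, where the columns name the lines, held 1 event each of FLI1 and ZEB1. The FLI1 event spans a 171 nt partly coding exon at chr11:128634546-128634716. It gave 65.0, 63.7 and 76.3 CPM in GS689 replicates 1 to 3, against 1.18, 0 and 1.10 in those of PC3E. These are 62, 54 and 47 counts in GS689, against 1, 0 and 1 in PC3E, so the lines did not overlap. FLI1 averaged 68.3 ± 6.96 CPM in GS689 and 0.759 ± 0.658 in PC3E (SD, n = 3 each). FLI1 rose in GS689 by 5.76 on the log2 scale, with a standard error of 0.45 and a Benjamini-Hochberg adjusted p = 8.42e-06 in limma-voom over all 1317 genes tested. It met the count filter of that fit only through the 3 GS689 libraries, the group where it is high. With no filter the change was 5.74 (limma-voom adjusted p = 3.53e-05). The scaled ratio of summed counts was 84.7, with a 95% exact counting interval of 23.1 to 706. Without replicate 2 of PC3E the change was 5.26 (limma-voom adjusted p = 6.96e-06). Over all alternatives it lay between 5.17 and 6.01, with limma-voom adjusted p from 2.19e-07 to 0.000137. These alternatives include a filter needing 2 libraries, which was added after seeing the data. Of the 1317 genes, 16.0% were higher and 13.8% lower in GS689 at an adjusted p under 0.05.

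The ZEB1 event of RASL-seq spans a 162 nt noncoding exon at chr10:31663732-31663893 and was too low for that fit. It gave 26, 12 and 6 counts in GS689, against 1, 0 and 0 in PC3E, or 27.3, 14.1 and 9.74 CPM in GS689, against 1.18, 0 and 0 in PC3E. Every GS689 library was higher. ZEB1 averaged 17.0 ± 9.11 CPM in GS689 and 0.393 ± 0.681 in PC3E (SD, n = 3 each). An exact two-sided permutation test over the 6 libraries gave p = 0.1, the smallest p that 3 against 3 allows. The scaled ratio of summed counts was 45.7, with a 95% exact counting interval of 7.79 to 1847. Fitted without the filter on low counts, as an alternative, ZEB1 was higher in GS689 by 4.29 on the log2 scale. That value rests on 1 count in PC3E, and no p-value is taken from it.

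**Figure D2:**
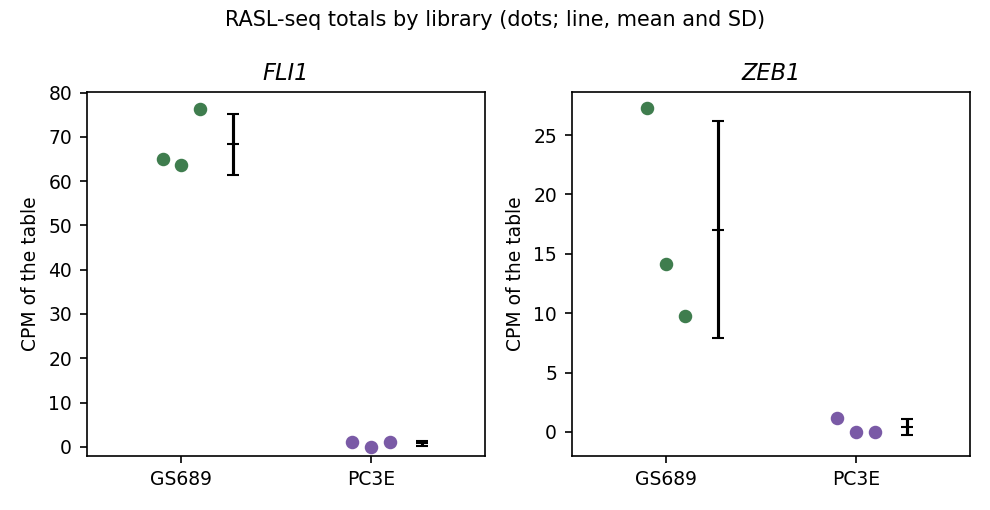
RASL-seq counts of both forms of the FLI1 and the ZEB1 event, in CPM, with 1 dot per library for GS689 at left and PC3E at right, and the mean with its SD (n = 3) beside the dots. FLI1 lies between 63.7 and 76.3 in GS689 and at or below 1.18 in PC3E, and ZEB1 between 9.74 and 27.3 in GS689 and at or below 1.18 in PC3E.

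Within the members' transcripts, exon inclusion could be compared for the 14 of 44 events that had at least 20 counts in every library of both sets. Inclusion is the length-corrected share of the included form. An event was called when the sets did not overlap and their medians differed by at least 5 percentage points, as 2.72% of 90656 events of the table did. Of the 14, 1 was called, in GRHL1. Over all 6 libraries, 10 of the 14 had a median inclusion above 95%, and the other 4 lie in GRHL1, ELF3, EHF and ETS1. No event of GRHL2, OVOL2, FLI1, ZEB1 or ZEB2 qualified.

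The 77 nt GRHL1 exon was included at 46.6%, 60.8% and 74.0% in libraries 1 to 3 of set 2, against 97.4%, 100% and 100% in those of set 1. These rest on 29, 38 and 25 inclusion and 19, 14 and 5 skipping counts in set 2, against 133, 238 and 199 inclusion and 2, 0 and 0 skipping counts in set 1. Inclusion was lower in every set 2 library, and the median differed by -39.2 percentage points (set 2 minus set 1). With 1 library left out the difference lay between -46.3 and -32.6 points and the sets never overlapped. The lower GRHL1 total of set 2 thus came with a larger share of skipped transcripts. These are not separate findings, since the totals are not length-corrected. The included form has an effective length of 177 and the skipped form of 101, so skipping by itself lowers the total. Set 2 was 2.69-fold lower at the 65 nt GRHL1 exon and 3.71-fold lower at the 77 nt exon. The length of the exon is not a multiple of 3. In the sequence below, the end of exon 4 is joined directly to exon 6, and capitals mark the stop codon that the shifted frame meets, which begins 9 bases after the junction.
GRHL1 exon 4 joined to exon 6: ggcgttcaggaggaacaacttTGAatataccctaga
The reading frame then codes for 226 residues, against 618 with the exon. Of 8 annotated GRHL1 transcripts 2 hold this skipping junction, 1 annotated as subject to nonsense-mediated decay and 1 as protein coding. The other GRHL1 event, at a 65 nt coding exon, was included at or near 100% in every library, with 1 skipping count in all.

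The 69 nt coding EHF exon at chr11:34673284-34673352 was included at 88.4%, 85.5% and 89.3% in set 2, against 87.7%, 86.6% and 83.7% in set 1. The sets overlapped and the medians differed by 1.82 points, although the EHF total differed 13.4-fold. Skipping removes 23 codons in frame, giving 277 residues against 300 with the exon, and 2 of 12 annotated transcripts lack it.

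The 261 nt ETS1 exon was included at 96.2%, 95.3% and 96.4% in set 2, against 93.6%, 94.2% and 90.1% in set 1. The sets did not overlap, but the medians differed by 2.60 points, under the 5 required. The exon holds 87 codons, and skipping gives 354 residues against 441. It codes for part of the stretch that inhibits DNA binding by ETS1, which the shorter known ETS1 protein lacks. Both other ETS1 events were included at or near 100% in every library.

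ELF3 exon 2 has a pair of alternative 3′ ends, at 165 and 171 nt, which share their skipping reads. Inclusion of the 165 nt form against skipping was 100%, 95.3% and 92.7% in libraries 1 to 3 of set 2, against 86.0%, 94.96% and 94.3% in set 1. The sets overlapped for both forms, and the remaining ELF3 events with enough counts were included at or near 100%.

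**Figure D3:**
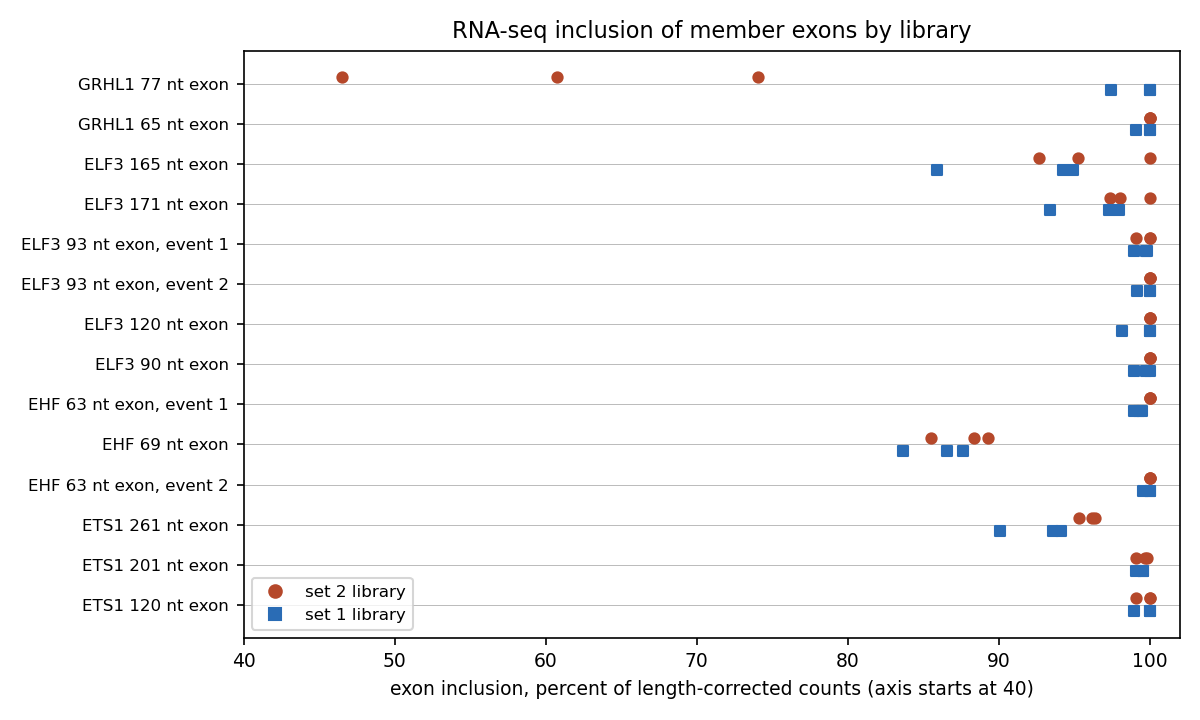
Inclusion, in percent of length-corrected counts, of the 14 member exon events with at least 20 counts in every RNA-seq library, with 1 symbol per library, circles for set 2 above squares for set 1, on an axis that starts at 40%. The 77 nt GRHL1 exon lies at 46.6% to 74.0% in set 2 and at 97.4% to 100% in set 1, and all other events lie above 80% in both sets.

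Some events that lacked 20 counts in 1 set still had a clear ratio of forms in the other. The 171 nt FLI1 exon was almost fully skipped in set 2, with 3, 2 and 0 inclusion counts and 91, 97 and 112 skipping counts, and set 1 held 2, 0 and 1 skipping counts. In RASL-seq the same exon had 0 inclusion counts among 163 in GS689, which allows a share of up to 1.84% when 3 counts of the total are taken as the limit of a count of 0. The upper bound of the 95% Wilson interval is 2.30%. The coding FLI1 exons of 66 and 60 nt were mostly included in set 2, with 213, 122 and 135 inclusion and 5, 2 and 0 skipping counts at the 66 nt exon. The 162 nt ZEB1 exon had 11 inclusion counts among 44 in GS689 RASL-seq libraries (25.0%, 95% Wilson interval 14.6% to 39.4%). Its share was 19.2%, 33.3% and 33.3% in GS689 replicates 1 to 3, and the single PC3E count was a skipping count. In RNA-seq the same ZEB1 exon had 10, 7 and 1 inclusion and 15, 2 and 4 skipping counts in set 2, against 0, 0 and 0 inclusion and 1, 0 and 1 skipping counts in set 1.

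Related factors were read from lists by family and role, chosen with earlier results of these data known. Of 15 other transition factors only 4 could be counted in RNA-seq. In set 2, 3 were higher (75%, beside 11.2% over all genes) and 0 lower (beside 7.47%). The 3 are TCF4 (3.76-fold), TWIST1 (2.47-fold) and TCF12 (2.24-fold), all basic helix-loop-helix factors. TWIST1 had 0.373, 0.534 and 0.251 CPM in set 2, against 0.101, 0.151 and 0.157 in set 1. No event matched SNAI1 or SNAI2, which also encode E-box repressors of the transition. In RASL-seq TCF12 was the 1 gene of this list that could be tested, and its change of 0.62 in GS689 did not pass (limma-voom adjusted p = 0.204). Of 12 other epithelial factors only 6 could be counted. In set 2, 3 were lower (50%, beside 7.47% over all genes) and 0 higher (beside 11.2%). The 3 include GRHL3, the third grainyhead-like gene, and TFCP2L1 (13.2-fold lower), of the wider grainyhead family. GRHL3 had 2, 0 and 3 counts in set 2, against 40, 110 and 69 in set 1. TFCP2L1 had 0.416, 0.212 and 0.241 CPM in set 2, against 3.71, 1.18 and 3.17 in set 1.

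Most other genes of the ETS family were neither higher nor lower by this rule, as were 9383 of all 11532 genes counted. Of 21 other ETS factors 14 could be counted, with a median log2 ratio of 0.18 against 0.11 over all genes. In set 2, 1 of them was higher (7.14%, beside 11.2% over all genes) and 0 lower (beside 7.47%). The 1 is ETV5, with 21.9, 24.4 and 16.0 CPM in set 2, against 6.11, 12.5 and 8.42 in set 1 (2.60-fold). Of 14 cofactors and partners of ZEB1, all could be counted, and 3 were higher and 0 lower in set 2, a share of 21.4% beside 11.2% over all genes. They are the acetyltransferase gene KAT2B (3.06-fold), SMAD3 of the TGF-beta pathway (2.19-fold) and the corepressor gene RCOR1 (2.15-fold). In RASL-seq 4 partners, KDM1A, SIRT1, SMARCA4 and YAP1, were tested and 0 passed limma-voom at an adjusted p under 0.05. At an unadjusted p under 0.05 the number was also 0, the lowest p being 0.106.

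Known targets of these factors were counted in the same libraries. The lists were chosen with earlier results of these data known, so they are no independent support for the values of the factors. Of 26 epithelial genes that ZEB1 represses or GRHL2 activates, or that belong to the same junctional program, 24 could be counted. Of these, 22 were lower (91.7%, beside 7.47% over all genes) and 0 higher (beside 11.2%) in set 2. Their median log2 ratio was -4.17. The largest ratios of medians were in the protease genes PRSS8 and ST14 (790-fold lower) and in ESRP1, an epithelial splicing regulator (622-fold lower). PRSS8 had only 2, 12 and 2 counts in set 2, against 1433, 3406 and 2280 in set 1. CDH1, which encodes E-cadherin, had 0.597, 1.34 and 0.638 CPM in set 2, against 107, 88.4 and 112 in set 1. In RASL-seq 4 of these genes could be tested and all 4 fell in GS689, beside 13.8% of all 1317 genes tested. LSR, a tricellular junction gene, fell by 6.45 on the log2 scale (limma-voom adjusted p = 2.14e-05). The polarity gene LLGL2 fell by 1.77 (limma-voom adjusted p = 0.00385), the tight junction gene OCLN fell by 1.63 (limma-voom adjusted p = 0.000308) and SPINT2, a protease inhibitor gene, fell by 0.99 (limma-voom adjusted p = 0.00216). Of 12 mesenchymal genes 11 could be counted, with a median log2 ratio of 2.67. In set 2, 8 were higher (72.7%, beside 11.2% over all genes) and 0 lower (beside 7.47%). The 8 include the matrix genes FBN1 (31.2-fold) and COL5A1 (23.1-fold). FN1 was not among the 8, with overlapping sets. VIM, the 1 mesenchymal gene tested in RASL-seq, rose by 4.51 in GS689 (limma-voom adjusted p = 6.54e-09).

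**Figure D4:**
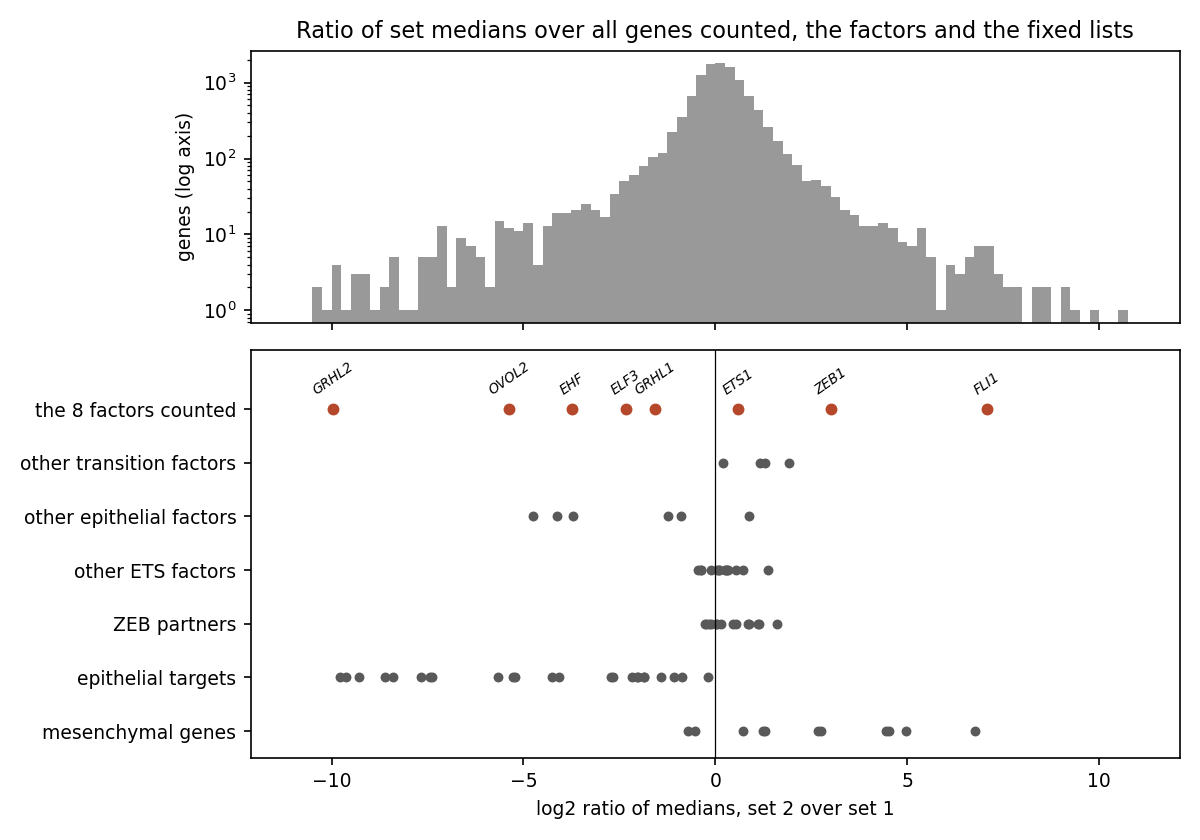
Log2 ratio of set medians, set 2 over set 1, as a histogram over the genes counted with a log count axis, and below it 1 point per gene for the 8 members counted and for each list. FLI1 (7.07) and ZEB1 (3.01) lie at the right, GRHL2 (-9.96) and OVOL2 (-5.37) at the left, the other ETS factors near 0, and the epithelial targets reach nearly as far left as GRHL2 (PRSS8 at -9.79).

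Markers of other cell types were read beside FLI1 and ETS1, which blood and endothelial cells express. Of 6 haematopoietic markers 3 had an event. PTPRC, which defines leukocytes, had 0, 0.141 and 0.0314 CPM in set 2, against 0.0734, 0.0178 and 0.0165 in set 1, and LCP1 was lower in set 2. CORO1A, the third, overlapped, with 1.64, 1.32 and 3.23 CPM in set 2, against 3.07, 1.72 and 3.19 in set 1. The summed level of that list was 47.8 to 57.0 CPM in set 2, against 158 to 165 in set 1. Most of it was LCP1, with 46.4 to 53.7 in set 2, against 155 to 162 in set 1. Of 6 endothelial markers 2 had an event, and both were higher in set 2 (beside 11.2% over all genes). KDR had 5.94, 10.8 and 4.56 CPM in set 2, against 0.0734, 0.0444 and 0.0579 in set 1, and TIE1 had 0.384, 0.554 and 0.638 in set 2, against 0, 0.0178 and 0.0496 in set 1. Their sum was 5.20 to 11.4 in set 2, against 0.0621 to 0.108 in set 1. No event matched PECAM1, CDH5 or VWF, and the part of endothelial transcripts in the FLI1 result was not tested. Of 5 prostate luminal markers only TMPRSS2 had an event, and its sets overlapped, so the prostate label could not be checked further. Of 4 neuroendocrine markers 2 could be counted. NCAM1 was higher in set 2, with 1.69, 1.35 and 1.25 CPM, against 0.0184, 0.00888 and 0.0165 in set 1. ENO2 overlapped, with 39.3, 59.5 and 49.4 CPM in set 2, against 15.4, 48.9 and 36.7 in set 1. Of 5 fibroblast markers COL1A1 could be counted and was higher in set 2 (6.96-fold). All 5 epithelial markers were lower in set 2, and 2 of 3 mesenchymal markers were higher. All of these also belong to the epithelial and mesenchymal lists above, so they are not a separate result.

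RefSeq promoter windows, 250 bases before to 50 after the start on GRCh38.p14, were matched for 5 members, ZEB1 with 7 windows, EHF with 2, and ZEB2, GRHL1 and ELF3 with 1 each. The E-box CAGGTG, read on both strands, lay in 3 of these 12 windows, 2 of ZEB1 and the 1 of ELF3, and in 20.6% of 35116 windows of the same length. In the ELF3 window it begins 120 bases before the start. The grainyhead-type motif AACCGGTT lay in 0 of the 12 and in 0.134% of all windows, and the ETS-type motif CCGGAAGT, on both strands, in 0 of the 12 and in 4.14% of all. These are matches of letters in the windows given, not binding sites.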

How the data were processed

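The authors deposited 1 table of exon events per assay. Per the file headers, each RASL-seq cell holds a pair of whole-number counts for 1 library, and each RNA-seq cell holds the counts of the 3 libraries of a numbered set, where effective lengths are 101 (skipping) and 102 to 202 (inclusion). STAR 2.5.2a and kallisto 0.43.0 on hg19 come from the submitters' processing notes, which give them no role. The first RASL-seq count was taken as inclusion, since its share correlated with RNA-seq inclusion across 1493 events with at least 100 counts in both assays (r = 0.88, across events, which are not independent). Empty cells were read as 0. Events were matched to 1 gene of GENCODE release 29 by strand, exon length and both intron lengths, for 109246 RNA-seq and 1934 RASL-seq events. GENCODE stands on another build, so exon positions are printed as deposited, on hg19 and 1-based.

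RASL-seq totals per gene were fitted with limma-voom (limma 3.58.1, R 4.3.3) on all 6 libraries, scaled by trimmed means of log ratios, with about 10 counts needed in 3 libraries and 15 in all, after the fit was tested on simulated data. The model planned for RASL-seq inclusion was not used, because neither member event passed its minimum (a mean of 10 counts, 1 in each library and 10 of the rarer form). Intervals cover counting error only, since reads are not independent molecules. Alternatives were other scalings, filters, counts, weights, a replicate block and each library left out. Named were all members and, of each list, up to 3 genes with the largest ratio among those called in each direction, and the genes called in RASL-seq. Others are named for their known role. The members and lists were chosen with earlier results of these data known. No deposited column of sample values was left out (0 columns). Some genes and sequences that this rule names are not reported here.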

Additional observations from a re-analysis of the deposited data

How the results depend on the processing

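In RNA-seq, 2149 of 11532 genes were called between the sets, against 1170 of 6986 with skipping counts alone, 2004 with the event with the most counts per gene, 2054 with scaling by the median ratio over all genes, 2519 with no minimum, and 2068 to 2381 with 1 library left out. ETS1 reversed with skipping counts alone, with a log2 ratio of -0.33 against 0.60, and the cause was not tested. At the 261 nt exon the skipping counts were 87 in set 2 and 119 in set 1, beside 4190 and 2882 inclusion counts. In the other alternatives the members kept their direction. RNA-seq inclusion gave 2469 called events, and 3296 to 3768 with 1 library left out, where fewer libraries have to be apart. RASL-seq totals gave 393 called genes of 1317, against 248 of 905 with skipping counts alone and 254 to 445 with 1 library left out (254 without GS689 replicate 1). With a replicate block 474 genes were called and FLI1 changed by 5.76 (limma-voom adjusted p = 2.19e-07). Same-numbered libraries of the 2 lines deviated together with r of 0.28, 0.17 and -0.02 over 1317 genes, so the numbers were not taken as pairs. FLI1 lacks the 3 libraries that the filter needs when a GS689 library is left out, so a filter needing 2 libraries was added after seeing the data. FLI1 then changed by 5.69 to 5.80. The ZEB1 permutation p in RASL-seq was 0.1 with either scaling. The alternatives planned for RASL-seq inclusion were not run, as no member event passed its minimum. Counts near 0 limit ZEB1 and FLI1 in set 1 and GRHL2 in set 2, and RNA-seq values carry no test because the sets have no line name.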
